A study of Rattus norvegicus with 4 samples.

Results

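The 8 genes described here encode neurotrophins, a neuregulin and the receptors that bind them. Bdnf and Ntf3 are neurotrophins, Ntrk2 and Ntrk3 are receptor tyrosine kinases for them, Ngfr is the low-affinity receptor shared by the family, Nrg4 is a neuregulin, and Erbb3 and Erbb4 are neuregulin receptors. They were taken by symbol, and each symbol matched 1 of the 32883 genes in the files. They were chosen by their summed UMI levels in these libraries, namely by the class that held them and by their taPVAT to BAT difference. Their levels and fold changes are therefore given as a description, with no test.

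Neurotrophins are secreted growth factors best known for keeping neurons alive and for guiding their axons. Brain-derived neurotrophic factor (Bdnf) acts mainly through TrkB (Ntrk2), neurotrophin-3 (Ntf3) mainly through TrkC (Ntrk3), and all of the family can bind p75 (Ngfr). Neuregulin-4 (Nrg4) is a ligand of the epidermal growth factor family that binds ErbB4 (Erbb4), and it is known as a secreted product of brown fat. ErbB3 (Erbb3) is the neuregulin receptor through which axons support Schwann cells, the glia of peripheral nerves.

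Nuclear RNA was measured in fat of naïve male Dahl salt-sensitive rats (strain SS/HsdMcwiCrl) aged 16 weeks. The thoracic aorta perivascular adipose tissue group (taPVAT), the fat around the chest aorta, and the subscapular brown adipose tissue group (BAT) held 2 libraries each, from 2 rats per tissue. All animals were of this hypertension-prone strain and none was treated, so no group is a control for the strain. The labels do not say whether the same rat gave both tissues, nor what a shared replicate number stands for.

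The libraries held 14765 to 44637 barcodes and 63654436 to 158140959 unique molecular identifiers (UMIs, each standing for 1 captured RNA molecule), and 126 to 424 barcodes occurred in both libraries of a pair, at most 1.29% of either. After filtering, 104995 nuclei were left, and 84393 of them fell into 9 classes. Classes were named from marker genes alone, so each name means adipocyte-like, mural-like and so on. The markers included none of the 8 genes, and neither these genes nor the pathway genes entered the clustering. Levels are in CPM: within 1 library, the summed UMIs of a class were scaled to 1000000. Since the kit counts the ends of transcripts, levels are compared between classes and tissues for 1 gene at a time, never between genes.

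Adipocytes made up 27649, 8145, 24179 and 9327 nuclei in taPVAT 1, taPVAT 2, BAT 1 and BAT 2. All 12 adipocyte markers were detected in them, but also in mural, vascular endothelial and lymphatic endothelial nuclei. These markers summed to 18551 CPM in adipocytes and to 5407 to 10775 CPM in the other classes. The other classes were small, with 38 Schwann nuclei in taPVAT 2, 27 and 25 lymphatic endothelial nuclei in BAT 1 and BAT 2, and 0 mesothelial nuclei in either BAT library. In Schwann nuclei 8 of the 11 Schwann markers in the files had UMIs (Ncmap, Mag and Fabp7 had none). Schwann markers summed to 6569 CPM there and fibroblast markers to 3307 CPM. BAT 2 stood apart, because 8914 of its nuclei lay in a cluster led by haemoglobin genes that was left unnamed. Haemoglobin genes were also among the leading genes of clusters 4, 8 and 10, mainly of taPVAT 1 and BAT 1, which were kept as adipocytes. The naming rule thus set such nuclei aside unequally across the libraries, with 1377, 656, 539 and 9143 unnamed nuclei in taPVAT 1, taPVAT 2, BAT 1 and BAT 2. Counting the unnamed haemoglobin-led clusters as adipocytes changed the adipocyte fold change of Ntrk3 from -0.90 to -0.86 and that of Nrg4 from 0.10 to 0.14 on the log2 scale. Axons of neurons leave no nuclei in fat, and the 10 neuron markers summed to 19.5 to 80.3 CPM per library. In each library 8 of the 10 had UMIs, and Nefl had none in any. The list summed to 50.8 CPM in adipocytes and 52.0 CPM in mural nuclei, so these sums are not read as neuronal.

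RNA of adipocytes was found in every other class. Against their level in adipocytes, the 11 adipocyte markers that reached 20 CPM had a median of 34.4% to 52.2% in vascular endothelial nuclei, 31.5% to 52.0% in mural nuclei and 24.7% to 40.3% in Schwann nuclei. Single markers ran from 14.9% to 183% in vascular endothelial nuclei, from 13% to 134% in mural nuclei and from 6.10% to 166% in Schwann nuclei. A gene of adipocytes that stays at or below the median share in another class is read here as background. This is a convention and does not exclude expression there. Since some single markers were higher in these classes than in adipocytes, the median is not a measured level of stray RNA. A share above the median can still lie within the range of the single markers.

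**Figure D1:**
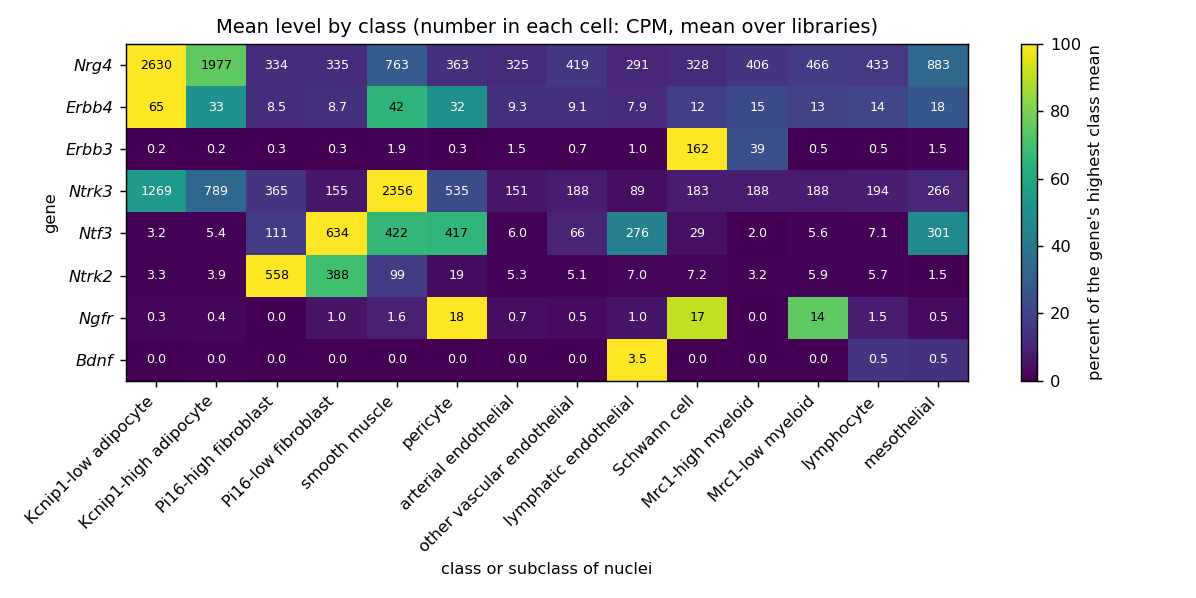
Mean level of each of the 8 genes (rows, CPM printed in each cell, mean over the libraries that hold the class) in 14 classes or subclasses of nuclei (columns), coloured by the percent of the gene's highest class mean. Nrg4 and Erbb4 peak in adipocytes, Ntrk3 in smooth muscle and then adipocytes, Ntf3 in Pi16-low fibroblasts and mural nuclei, Ntrk2 in fibroblasts and Erbb3 in Schwann nuclei, while Bdnf is near 0 throughout.

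Nrg4 was a transcript of the adipocyte. Its level in adipocyte nuclei was 1690 CPM in taPVAT 1, 3567 in taPVAT 2, 1509 in BAT 1 and 3493 in BAT 2. The level thus followed the replicate number rather than the tissue, and the groups overlapped. Within a number, taPVAT stood at 1.12 times BAT in number 1 and at 1.02 times in number 2. The fitted log2 fold change, taPVAT over BAT, was 0.10 ± 0.58 (SE), and it ran from -0.59 without taPVAT 2 to 0.89 without BAT 2. Haemoglobin and other erythroid or platelet markers also followed the number, at 180 and 141 CPM in taPVAT 1 and BAT 1 against 854 and 780 CPM in taPVAT 2 and BAT 2, and their part in the Nrg4 level was not tested.

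Adipocyte nuclei held 84.1% and 90.7% of all Nrg4 UMIs in taPVAT 1 and taPVAT 2 and 90.0% in BAT 1. In BAT 2 the share was 53.1%, and a further 26.3% lay in the unnamed nuclei. A Nrg4 UMI was seen in 94.9% to 99.7% of adipocyte nuclei and in 37.5% to 56.0% of vascular endothelial nuclei, at median depths of 3814 and 1416 UMIs per nucleus. With each nucleus thinned to 1000 UMIs these shares were 72.6% to 94.0% and 24.2% to 43.8%. The endothelial level of 265 to 559 CPM was 7.43% to 28.0% of the adipocyte level, below the median of the adipocyte markers in every library, and is read as background. In taPVAT 1 and BAT 1 it lay within the range of the single markers. A level below the median was also found in all libraries of the fibroblast, pericyte, lymphatic, myeloid, lymphocyte and Schwann nuclei. Smooth muscle and mesothelial nuclei, the lining cells of body cavities, had 1 library each above the marker median, both of them taPVAT 1.

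The adipocytes themselves were not uniform. Clusters with high Kcnip1, which encodes a potassium channel partner, held 7842 of the 69300 adipocyte nuclei. In them Nrg4 stood at 1344, 2452, 1267 and 2844 CPM in taPVAT 1, taPVAT 2, BAT 1 and BAT 2, below the other adipocytes in each library. Across the summed classes, 32 class-by-library sums, the genes most like Nrg4 among 11090 were Gk (Pearson r = 0.960 on log2 CPM), which encodes glycerol kinase, Cdo1 (r = 0.955), which encodes cysteine dioxygenase, and Atl2 (r = 0.943). These points share libraries, depth and background RNA, so the r values describe the pattern only.

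The Nrg4 promoter is shown because Nrg4 is the ligand found in adipocytes. RefSeq's GRCr8 table holds the 250 bases before the Nrg4 start site on the minus strand at chr8:64555174-64555423, and the capitals mark the only match to the nuclear receptor core AGGTCA, here as TGACCT on the other strand, starting 40 bases before the start. Windows with a match to AGGTCA on either strand made up 14.1% of 33469 RefSeq windows of this length, and a match is a description, not a site.
Nrg4: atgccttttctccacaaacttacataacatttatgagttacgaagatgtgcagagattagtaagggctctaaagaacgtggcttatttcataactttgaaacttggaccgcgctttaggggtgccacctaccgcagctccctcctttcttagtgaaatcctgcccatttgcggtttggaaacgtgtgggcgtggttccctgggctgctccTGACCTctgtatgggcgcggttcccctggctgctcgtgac

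Erbb4, the receptor of Nrg4, had its highest mean level in the same adipocytes, although smooth muscle was above them in taPVAT 1. Its adipocyte level was 43.9 and 63.2 CPM in taPVAT 1 and taPVAT 2, against 58.8 and 79.3 CPM in BAT 1 and BAT 2. The groups overlapped, and the log2 fold change was -0.33 ± 0.33 (SE). An Erbb4 UMI was seen in 11.9% to 20.9% of adipocyte nuclei and in 0.670% to 1.81% of vascular endothelial nuclei. The median depths were 3814 and 1416 UMIs per nucleus, so these shares do not compare the classes at equal depth. The endothelial level was 3.62 to 12.6 CPM. Of adipocyte nuclei with a Nrg4 UMI, 12.2%, 19.8%, 17.6% and 21.1% also had an Erbb4 UMI in taPVAT 1, taPVAT 2, BAT 1 and BAT 2. In nuclei without a Nrg4 UMI the share was 1.61% to 7.14%, at a lower median depth in each library (1642 to 2276 against 3396 to 5094 UMIs), and the part of depth was not tested.

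In pericytes, the mural cells that wrap capillaries, the tissues lay apart for Erbb4. The level was 10.4 CPM in taPVAT 1 (11 UMIs), 11.1 in taPVAT 2 (6 UMIs), 47.3 in BAT 1 (37 UMIs) and 60.5 in BAT 2 (41 UMIs). Both BAT libraries lay above both taPVAT libraries, and taPVAT over BAT was 0.219 in number 1 and 0.184 in number 2. The exact Poisson 95% intervals, which cover counting error only, were 5.17 to 18.5 and 4.08 to 24.2 CPM in taPVAT and 33.3 to 65.2 and 43.4 to 82.0 CPM in BAT. Relative to adipocytes the pericyte level was 80.4% and 76.3% in the BAT libraries, above the median of the adipocyte markers there (32.9% and 45%) and within the range of the single markers (22.4% to 157.7% and 18.2% to 144%). In the taPVAT libraries it was 23.6% and 17.6%, below the marker median (46.7% and 30.9%). Pericytes held 11, 6, 37 and 41 Erbb4 UMIs beside 430, 126, 221 and 361 Nrg4 UMIs in taPVAT 1, taPVAT 2, BAT 1 and BAT 2. Adipocytes held 4723, 2861, 6809 and 3024 Erbb4 UMIs beside 181739, 161340, 174577 and 133264 Nrg4 UMIs, so Erbb4 per Nrg4 UMI was higher in pericytes than in adipocytes in 3 libraries, but not in taPVAT 1. Smooth muscle went the other way, at 46.1 and 58.7 CPM in taPVAT 1 and taPVAT 2 against 34.3 and 29.6 in BAT 1 and BAT 2, on 2 to 19 UMIs per library, above the marker median in 3 of 4 libraries. In mural nuclei as a whole, pericytes and smooth muscle together, the log2 fold change was -1.42 ± 0.37 (SE), and it was -0.83 when nuclei were classed by a gate on their own marker UMIs.

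The genes most like Erbb4 over the 32 sums were RGD1562310 (r = 0.892), Adra1d (r = 0.861), which encodes an alpha-1 adrenergic receptor, and LOC683897 (r = 0.849). The Erbb4 window in the RefSeq GRCr8 table is given beside that of Nrg4 for comparison, since these are the ligand and the receptor that adipocytes share. It spans chr9:78045607-78045856 on the minus strand, has a GC content of 73.6% against 50.4% for Nrg4, and the capitals mark its only GC box, GGGCGG on either strand. GC boxes occurred in 30.5% of all windows.
Erbb4: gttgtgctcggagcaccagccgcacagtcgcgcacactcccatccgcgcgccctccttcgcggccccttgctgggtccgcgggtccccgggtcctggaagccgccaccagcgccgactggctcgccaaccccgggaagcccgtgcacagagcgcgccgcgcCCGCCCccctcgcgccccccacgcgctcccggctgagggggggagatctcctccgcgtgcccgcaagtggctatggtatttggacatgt

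Erbb3, in contrast, was a gene of Schwann nuclei. Its level there was 123 CPM in taPVAT 1, 155 in taPVAT 2, 185 in BAT 1 and 186 in BAT 2, on 38, 13, 46 and 33 UMIs. The taPVAT libraries lay below the BAT libraries, with a log2 fold change of -0.53 ± 0.35 (SE), and the counting intervals overlapped (87.0 to 169 CPM in taPVAT 1 against 128 to 261 in BAT 2). An Erbb3 UMI was seen in 18.2% to 27.3% of Schwann nuclei and in 0.0737% to 0.105% of adipocyte nuclei. Myeloid nuclei with high Mrc1, the mannose receptor of resident macrophages, were next at 35.7, 40.3, 30.8 and 51.0 CPM on 9 or 10 UMIs per library. The other myeloid nuclei had 0 UMIs in 3 libraries and 1 in BAT 1. All other classes had at most 3 UMIs in any library apart from adipocytes, whose level was 0.133 to 0.270 CPM. The genes most like Erbb3 were L1cam (r = 0.95), which encodes a neural cell adhesion molecule, Gas2l3 (r = 0.939) and Kcnh8 (r = 0.905).

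Ntrk3 had its highest level in smooth muscle and its largest amount in adipocytes. Adipocyte nuclei stood at 591 CPM in taPVAT 1, 1066 in taPVAT 2, 1126 in BAT 1 and 2052 in BAT 2. Both taPVAT libraries were below both BAT libraries, though taPVAT 2 and BAT 1 were close. Within a replicate number taPVAT held 0.525 and 0.520 times the BAT level. The log2 fold change was -0.90 ± 0.48 (SE), and it ran from -0.35 without BAT 2 to -1.45 without taPVAT 2. Of the 7 of these genes that passed the filter on low counts in adipocytes, 3 had groups that did not overlap (Ntrk2, Ntrk3 and Ntf3), where 20.8% of all 15528 genes tested did not overlap. At an adjusted p of 0.05 edgeR called 0% of all genes (340 at an unadjusted p under 0.05, and 57 called by DESeq2), and since these genes were chosen on this contrast nothing is read from either share.

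Ntrk3 was also compared inside the adipocyte clusters, most of which were made up mainly of 1 library. Cluster 6 held 5408 nuclei of taPVAT 1 and 72 of BAT 1, cluster 3 held 516 and 5736, and cluster 2 held 6064 of taPVAT 2 and 266 of BAT 2, so many of the ratios rest on few nuclei of 1 tissue. In number 1, 12 clusters had at least 20 nuclei of each tissue, and Ntrk3 was lower in taPVAT in 12 of them, at 0.569 to 0.887 times BAT with a median of 0.782. In number 2, under the same minimum, it was lower in 5 of 5, at 0.540 to 0.971 times with a median of 0.644. Both medians were nearer to 1 than the 0.525 and 0.520 of all adipocytes. Nrg4 in the same nuclei stood at a median of 1.01 times BAT in number 1 and 0.985 times in number 2. Erbb4 was lower in 7 of 12 and in 4 of 5 clusters. Clusters of 1 library are not replicates, so these counts describe the 4 libraries and add no sample. Ntrk3 in the Kcnip1-high adipocytes was 556, 533, 852 and 1215 CPM in taPVAT 1, taPVAT 2, BAT 1 and BAT 2, below the Kcnip1-low adipocytes of the same library in each case.

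**Figure D2:**
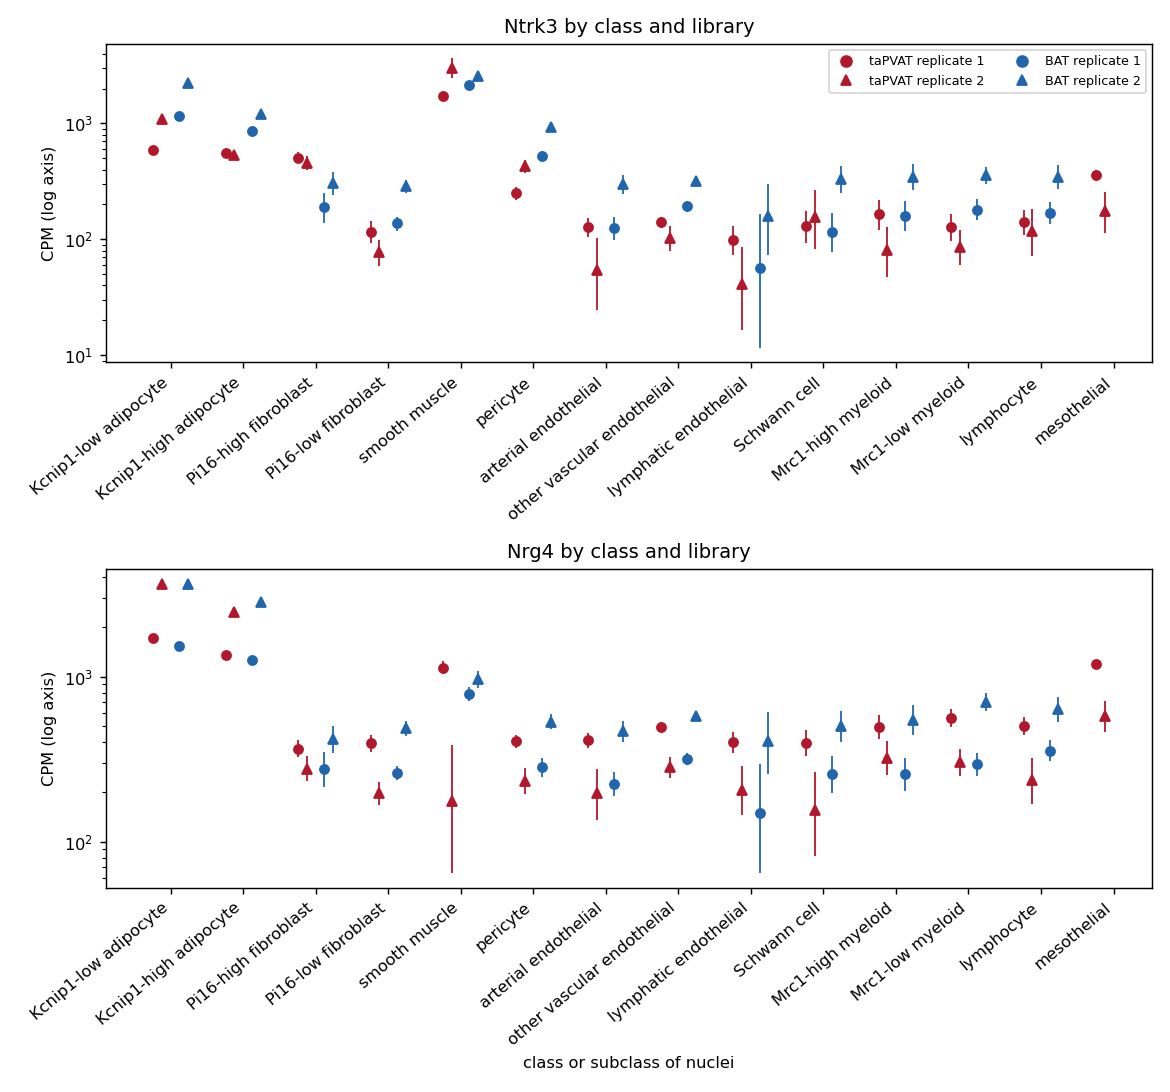
Ntrk3 (top) and Nrg4 (bottom) in CPM on a log axis, by class or subclass (horizontal axis) and library (red taPVAT, blue BAT, circle replicate 1, triangle replicate 2), with exact Poisson 95% intervals as bars. Ntrk3 in adipocytes runs from 591 to 2052 CPM with both taPVAT libraries below both BAT libraries, whereas Nrg4 pairs by replicate number.

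Mural nuclei as a whole mixed smooth muscle, above the adipocyte level of Ntrk3 in each library, with pericytes, below it in each library. The level in all mural nuclei was 663, 580, 1188 and 1444 CPM in taPVAT 1, taPVAT 2, BAT 1 and BAT 2, and the ratio of mural to adipocyte level was 1.12, 0.544, 1.05 and 0.704 in the same order (0.856 ± 0.277, SD, n = 4). Vascular endothelial nuclei stood at 137, 92.8, 174 and 313 CPM, a ratio of 0.156 ± 0.059 (SD, n = 4) to adipocytes. Schwann nuclei stood at 129, 155, 117 and 332 CPM, a ratio of 0.157 ± 0.048 (SD, n = 4). The mural ratio thus overlapped 1, while the endothelial and Schwann ratios lay between 0.0870 and 0.231 in every library. Both were below the median share of the adipocyte markers, so by that median Ntrk3 in endothelial and Schwann nuclei is read as background.

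This order depended on how nuclei were classed. When each nucleus was gated by its own marker UMIs, the mean ratio was 1.25 in mural, 0.698 in vascular endothelial and 1.16 in Schwann nuclei. The gate put 1065, 282, 1023 and 584 nuclei in the Schwann class, against 181, 38, 139 and 105 by cluster. It left 2880, 309, 2395 and 2372 adipocytes, against 27649, 8145, 24179 and 9327 by cluster, so the denominator of the ratios changed too. The markers of Schwann cells summed to 753 CPM in cluster-defined adipocytes and to 6569 CPM in cluster-defined Schwann nuclei. How many gated Schwann nuclei were adipocytes was not tested.

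Within mural nuclei Ntrk3 was split. Smooth muscle, the contractile layer of larger vessels, stood at 1728 CPM in taPVAT 1, 2995 in taPVAT 2 (16 nuclei), 2132 in BAT 1 and 2567 in BAT 2, and the groups overlapped. Pericytes stood at 249, 428, 520 and 941 CPM, with taPVAT at 0.479 and 0.455 times BAT in numbers 1 and 2 and no overlap of the groups. Relative to adipocytes the pericyte level was 42.2%, 40.1%, 46.2% and 45.8%, against 46.7%, 30.9%, 32.9% and 45% for the median of the adipocyte markers, so it was below that median in taPVAT 1 and barely above it in BAT 2. A Ntrk3 UMI was seen in 87.5% to 96.7% of smooth muscle nuclei and in 25.9% to 67.1% of pericytes, against 15.2% to 37.6% of vascular endothelial nuclei. The smooth muscle median depth was 2416.5 UMIs against 1544 in pericytes and 1416 in endothelial nuclei. With each nucleus thinned to 1000 UMIs the 3 ranges were 74.8% to 88.1%, 17.9% to 54.5% and 9.88% to 26.6%.

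The mural log2 fold change of Ntrk3 was -1.13 ± 0.32 (SE). Smooth muscle made up 118 of 818 mural nuclei in taPVAT 1 and 16 of 288 in taPVAT 2, against 150 of 585 in BAT 1 and 128 of 556 in BAT 2, and the part of this make-up in the mural difference was not tested. Within a number, taPVAT over BAT was 0.558 and 0.402 in all mural nuclei, beside the 0.479 and 0.455 of the pericytes alone. Of the 6 of these genes that passed the filter in mural nuclei, 4 had groups that did not overlap (Ntrk2, Ntrk3, Ngfr and Erbb4), where 29.9% of 8997 genes did not. The fit called 0.0111% of all genes there. In vascular endothelial nuclei the Ntrk3 log2 fold change was -1.15 ± 0.40 (SE) and in Schwann nuclei -0.74 ± 0.48 (SE), both at levels read as background. The Schwann value was 0.22 without BAT 2 and -1.35 without BAT 1. Schwann nuclei of taPVAT stood at 1.11 times BAT in number 1 and at 0.466 times in number 2.

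The Ntrk3 UMIs per Nrg4 UMI were also set beside those of adipocytes. Single adipocyte markers kept no common share in the other classes, so this ratio is a description and does not by itself separate background from expression. The ratio was 0.35, 0.299, 0.747 and 0.588 in adipocytes of taPVAT 1, taPVAT 2, BAT 1 and BAT 2. In vascular endothelial nuclei it was 0.289, 0.35, 0.595 and 0.559, below adipocytes in 3 libraries and above them in taPVAT 2. In pericytes it was 0.616, 1.83, 1.84 and 1.77, above adipocytes in each library, and in smooth muscle 1.53, 17.0, 2.73 and 2.67, where the 17.0 rests on 6 Nrg4 UMIs. Schwann nuclei of taPVAT 1 and BAT 1 stood at 0.325 and 0.453, below adipocytes, and those of taPVAT 2 and BAT 2 at 1.0 and 0.663, above them, with 13 UMIs of each gene in taPVAT 2.

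**Figure D3:**
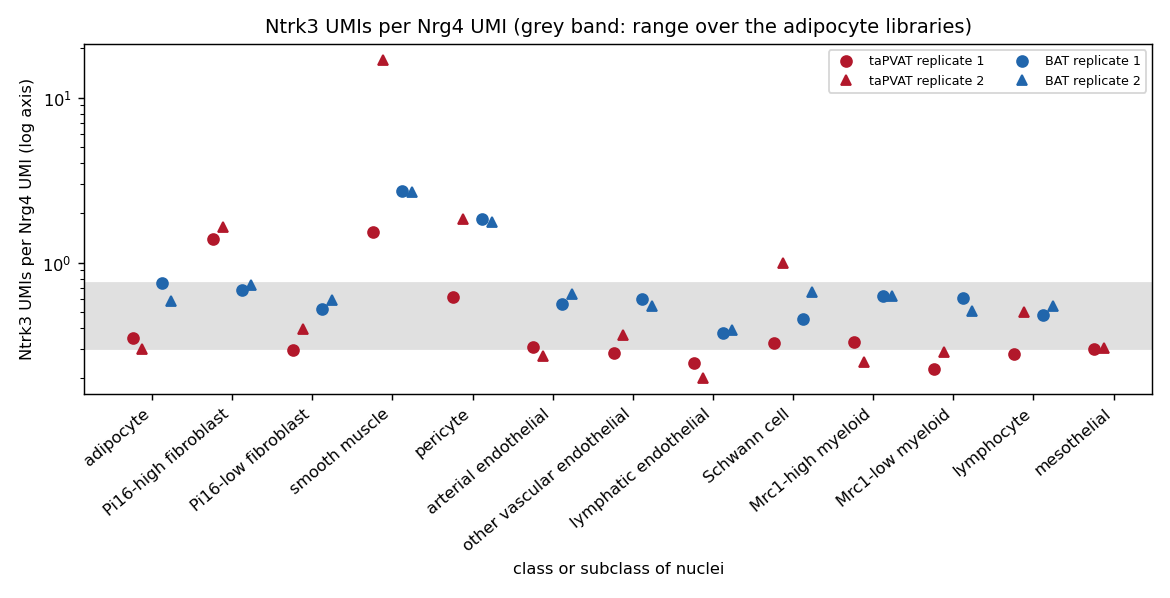
Ntrk3 UMIs per Nrg4 UMI on a log axis, by class or subclass and library (red taPVAT, blue BAT, circle replicate 1, triangle replicate 2), with the adipocyte range of 0.299 to 0.747 as a grey band. Smooth muscle lies above the band in all 4 libraries, pericytes in 3 of 4 and Pi16-high fibroblasts in the taPVAT libraries, while most other points lie in or below it.

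Fibroblasts with high Pi16, a marker of progenitor-like fibroblasts of the outer vessel wall and of fat septa, also held Ntrk3 UMIs. They stood at 508 and 457 CPM in taPVAT 1 and taPVAT 2 against 189 and 304 CPM in BAT 1 and BAT 2. Here taPVAT was the higher tissue, 2.69-fold in number 1 and 1.5-fold in number 2. Their Ntrk3 per Nrg4 ratio was 1.39 and 1.65 in the taPVAT libraries, above adipocytes, and 0.686 and 0.729 in BAT 1 and BAT 2, below and above them. Their level was 85.9% and 42.9% of that of adipocytes in taPVAT 1 and taPVAT 2, above the median of the adipocyte markers (37.0% and 26.6%) and within the range of the single markers (25.7% to 102% and 11.5% to 110.2%). In both BAT libraries it was below the median, so read as background. The Pi16-low fibroblasts went the other way, at 116, 77.4, 137 and 287 CPM, a level read as background. In all fibroblasts the groups overlapped and the log2 fold change was 0.19 ± 0.41 (SE), reaching -0.99 under the marker gate and 0.88 without BAT 2. The genes most like Ntrk3 over the 32 sums were Pde3a (r = 0.871), which encodes a cyclic nucleotide phosphodiesterase, AC134204.1 (r = 0.868) and Slc24a3 (r = 0.855), which encodes a sodium-calcium exchanger.

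Ntf3, the ligand of Ntrk3, had its highest levels in other nuclei than adipocytes. In Pi16-low fibroblasts it stood at 599 CPM in taPVAT 1, 651 in taPVAT 2, 802 in BAT 1 and 485 in BAT 2. Pi16-high fibroblasts held 74.1, 103, 98.4 and 168 CPM, below the Pi16-low nuclei of each library. Neither set separated the tissues. Over all fibroblasts the log2 fold change was -0.56 ± 0.36 (SE). Of the 5 of these genes that passed the filter in fibroblasts, 0 had groups without overlap, where 27% of 9420 genes had, and the fit called 0.234% of all genes.

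Mural nuclei were the other main source of Ntf3. Pericytes stood at 424, 422, 585 and 237 CPM and smooth muscle at 419, 675, 407 and 187 CPM in taPVAT 1, taPVAT 2, BAT 1 and BAT 2. The pericyte groups overlapped and the smooth muscle groups did not, with taPVAT 1 and BAT 1 close. The mural log2 fold change was 0.22 ± 0.39 (SE), and it was 0.85 without BAT 1 and -0.22 without BAT 2, since BAT 2 is the lowest of the 4 libraries. Mesothelial nuclei, found in taPVAT alone, held 146 and 456 CPM. Lymphatic endothelial nuclei held 100 and 101 CPM in taPVAT 1 and taPVAT 2 and 692 and 212 CPM in BAT 1 and BAT 2, where the class had 27 and 25 nuclei. The order of means was therefore Pi16-low fibroblasts, then smooth muscle and pericytes, which overlap each other and the fibroblasts, then mesothelial and lymphatic nuclei, whose ranges overlap the mural ones.

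Adipocytes held Ntf3 at 2.79, 1.72, 3.91 and 5.22 CPM, and the Mrc1-high myeloid nuclei at 0 to 4.48 CPM. A Ntf3 UMI was seen in 39.9% to 57.8% of Pi16-low fibroblasts and in 0.823% to 1.82% of adipocytes, although the median depth was 1687 UMIs in the fibroblasts and 3814 in the adipocytes. With 1000 UMIs per nucleus the shares were 28.2% to 42.3% and 0.221% to 0.537%. The adipocyte log2 fold change was -0.99 ± 0.39 (SE). The fibroblast markers summed to 77.1 CPM in adipocytes and 7449 CPM in fibroblasts, and the part of such RNA in the adipocyte level of Ntf3 was not tested. Fibroblast nuclei held 17.2% to 47.8% of all Ntf3 UMIs of a library and mural nuclei 13.2% to 21.8%. The many adipocyte nuclei held 6.63% to 12.1%, and a further 11.4% to 36.4% lay in the mixed nuclei, which carried markers of more than 1 class.

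Endothelial nuclei held little Ntf3. It was 53.1, 68.7, 40.2 and 45.6 CPM in vascular endothelial nuclei of taPVAT 1, taPVAT 2, BAT 1 and BAT 2, higher in taPVAT without overlap, with a log2 fold change of 0.43 ± 0.31 (SE). Of the 5 of these genes that passed the filter there, 2 did not overlap (Ntrk3 and Ntf3), where 20.2% of 10193 genes did not, and the fit called 0% of all genes (96 at an unadjusted p under 0.05, and 2 called by DESeq2). Arterial nuclei held 9.01, 12.0, 3.08 and 0 CPM, so the endothelial value came from the remaining nuclei at 70.2, 83.0, 54.1 and 54.7 CPM. The part of fibroblast and mural RNA in the endothelial value was not tested. In Schwann nuclei Ntf3 had 8, 0, 7 and 11 UMIs, and the floor of 3 UMIs in taPVAT 2 is 35.7 CPM. The 11 UMIs of BAT 2 lay in 1.90% of its Schwann nuclei.

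Some mural nuclei held UMIs of both ligand and receptor. In smooth muscle a UMI of Ntrk3 and a UMI of Ntf3 were seen together in 57.6% of nuclei of taPVAT 1, 37.5% of taPVAT 2, 58.7% of BAT 1 and 25.0% of BAT 2. Ntf3 was seen in 62.4%, 42.9%, 60.7% and 27.1% of smooth muscle nuclei with a Ntrk3 UMI and in 44.4%, 50%, 40% and 10% of those without, which were only 9, 2, 5 and 10 nuclei and had fewer UMIs (medians of 1211 to 1673 against 2033.5 to 2947). In pericytes, whose Ntrk3 was below the median of the adipocyte markers in taPVAT 1, the share with both was 10.4%, 22.8%, 24.4% and 18.9%. Ntf3 was seen in 28.2% to 57.9% of Ntrk3-positive pericytes and in 23.4% to 49.2% of the others, and Ntrk3-positive pericytes were the deeper ones in each library (medians of 1520 to 1984 against 1319 to 1871 UMIs). The part of depth in both sets was not tested.

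The genes most like Ntf3 over the 32 sums were AABR07044388.2 (r = 0.912), Mindy4 (r = 0.907) and Bicc1 (r = 0.904), which encodes an RNA-binding protein. RefSeq's GRCr8 table lists 3 starts for Ntf3, and the 250 bases before the farthest upstream one are shown as the promoter of the fibroblast and mural ligand, to set beside that of the adipocyte ligand. The window is chr4:160670624-160670873 on the minus strand, with a GC content of 62.8%. It held no AGGTCA core, no CCAAT box and no TGACGTCA element on either strand, and the capitals mark its only GC box.
Ntf3: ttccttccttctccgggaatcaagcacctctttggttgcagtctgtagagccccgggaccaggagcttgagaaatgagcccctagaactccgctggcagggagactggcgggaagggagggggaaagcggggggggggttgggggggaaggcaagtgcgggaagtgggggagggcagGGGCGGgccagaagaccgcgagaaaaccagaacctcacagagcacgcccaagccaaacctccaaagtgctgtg

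CCAAT boxes, searched as CCAAT and ATTGG, occurred in 34.0% of all windows and TGACGTCA in 1.59%. Neither the Nrg4 nor the Erbb4 window held them. That these letters are not in a window says nothing about the factors that bind there. The table had entries for 4 of the 8 genes, Bdnf being the other one.

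Ntrk2, the receptor of Bdnf, was a fibroblast gene in these tissues. Pi16-high fibroblasts stood at 454 CPM in taPVAT 1, 538 in taPVAT 2, 582 in BAT 1 and 656 in BAT 2. Pi16-low fibroblasts held 445, 378, 457 and 272 CPM. The taPVAT libraries were below the BAT libraries in the Pi16-high set and overlapped them in the Pi16-low set. Over all fibroblasts the log2 fold change was 0.02 ± 0.30 (SE), the value nearest to 0 among the 26 fits of the 8 genes. A Ntrk2 UMI was seen in 32.3% to 44.0% of fibroblasts and in 1.06% to 2.1% of adipocytes, at median depths of 1682 and 3814 UMIs. Fibroblasts held 36.3% to 66.6% of all Ntrk2 UMIs of a library. The mixed nuclei held 36.5%, 5.01%, 31.0% and 33.0% in taPVAT 1, taPVAT 2, BAT 1 and BAT 2, and the many adipocyte nuclei 11.0% to 24.2%.

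Smooth muscle was next for Ntrk2, at 70.3 CPM in taPVAT 1, 29.4 in taPVAT 2 (1 UMI), 116 in BAT 1 and 181 in BAT 2. Pericytes went the other way at a lower level, with 21.6 and 27.8 CPM in taPVAT 1 and taPVAT 2 against 11.5 and 16.2 CPM in BAT 1 and BAT 2, on 9 to 23 UMIs. In mural nuclei as a whole the log2 fold change was -0.96 ± 0.33 (SE), and it was -0.17 under the marker gate. Smooth muscle was a larger part of the mural nuclei in BAT, and the part of this make-up was not tested. In adipocytes Ntrk2 was 3.54 and 4.49 CPM in taPVAT 1 and taPVAT 2 against 2.51 and 2.78 in BAT 1 and BAT 2, a log2 fold change of 0.64 ± 0.35 (SE), and the part of fibroblast RNA in this low level was not tested. The genes most like Ntrk2 were the collagens Col6a6 (r = 0.907), Col6a1 (r = 0.906) and Col4a4 (r = 0.902).

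**Figure D4:**
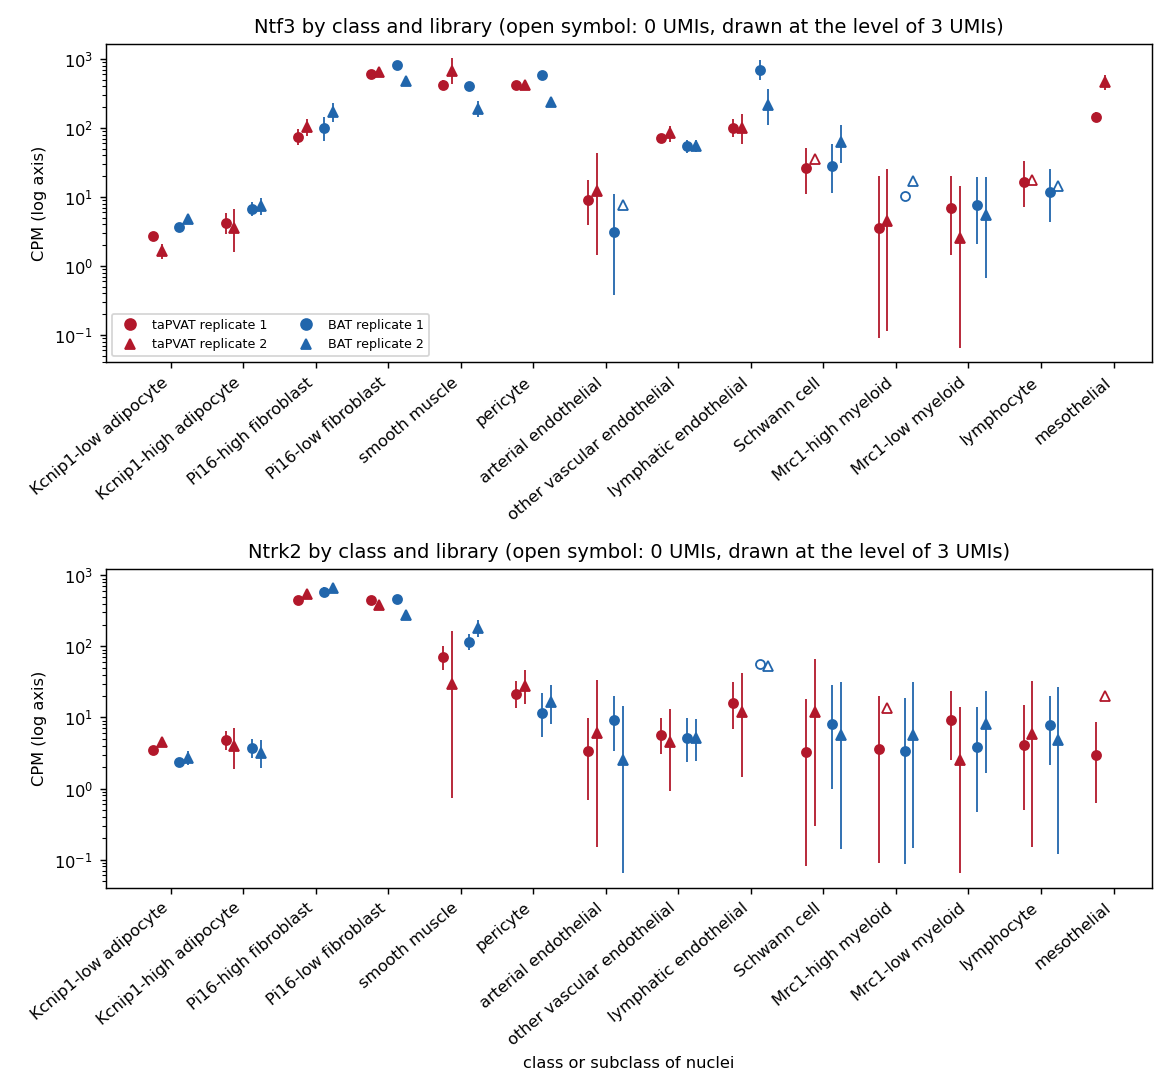
Ntf3 (top) and Ntrk2 (bottom) in CPM on a log axis, by class or subclass and library (red taPVAT, blue BAT, circle replicate 1, triangle replicate 2), with exact Poisson 95% intervals as bars and open symbols at the level of 3 UMIs where none was counted. Ntf3 lies between 485 and 802 CPM in Pi16-low fibroblasts and at 1.62 to 7.38 CPM in the adipocyte subclasses, and Ntrk2 lies between 272 and 656 CPM in the fibroblast subclasses.

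Of Ntf3 and Ntrk2 together, 12.7% to 27.8% of Pi16-low fibroblasts and 4.78% to 7.14% of Pi16-high fibroblasts had a UMI of each. In the Pi16-low set, nuclei with a Ntrk2 UMI had a Ntf3 UMI in 45% to 63.3% of cases and those without in 37.9% to 54.3%. In the Pi16-high set the shares were 12.2%, 13.6%, 12.7% and 15.7% with a Ntrk2 UMI against 5.24%, 7.83%, 8.97% and 16.7% without, in taPVAT 1, taPVAT 2, BAT 1 and BAT 2, so BAT 2 had the opposite order. Pi16-low nuclei with a Ntrk2 UMI were also deeper in each library, by medians of 1706 to 2204 against 1371.5 to 1884 UMIs. Pi16-high nuclei with a Ntrk2 UMI were deeper in each library too, by medians of 1616.5 to 2170 against 1387 to 1724 UMIs. Only 21, 16, 7 and 11 Pi16-high nuclei had both UMIs in taPVAT 1, taPVAT 2, BAT 1 and BAT 2. The part of depth was not tested in either set.

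Bdnf, the main ligand of Ntrk2, was almost absent from nuclear RNA. Over all kept nuclei it had 5 UMIs in taPVAT 1, 2 in taPVAT 2, 1 in BAT 1 and 3 in BAT 2. Lymphatic endothelial nuclei of taPVAT gave 1 and 2 of these. Fibroblasts had 0 UMIs in all 4 libraries, where the floor of 3 UMIs is 1.68 to 2.81 CPM per library. Schwann nuclei also had 0, where this floor is 9.70 to 35.7 CPM. No fold between tissues is given, and no gene is named as most like it, since it reached 20 CPM in no sum. At this depth a low level of Bdnf in a small class was not detectable.

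Ngfr, the p75 receptor, was rare as well. Pericytes held 21.6, 22.2, 21.7 and 7.37 CPM in taPVAT 1, taPVAT 2, BAT 1 and BAT 2, on 23, 12, 17 and 5 UMIs. Schwann nuclei held 9.70, 35.7, 4.02 and 16.9 CPM on 3, 3, 1 and 3 UMIs, and Mrc1-low myeloid nuclei 11.6, 25.5, 9.61 and 8.12 CPM. The ranges of these 3 classes overlapped, so their order is not settled. Adipocytes held 0.251 to 0.363 CPM. The mural log2 fold change was 0.77 ± 0.48 (SE), with groups that did not overlap (15.6 and 20.9 CPM in taPVAT against 12.7 and 7.12 CPM in BAT). The pericyte groups above overlapped. Smooth muscle, a larger part of the mural nuclei in BAT, held 2 Ngfr UMIs, both in BAT 2, and the part of this make-up was not tested. A Ngfr UMI was seen in 3, 2, 1 and 3 Schwann nuclei of taPVAT 1, taPVAT 2, BAT 1 and BAT 2, and 0, 1, 0 and 2 of these also had an Erbb3 UMI. The genes most like Ngfr were Slc10a6 (r = 0.803), Adgrl3 (r = 0.773) and Klf8 (r = 0.756). Many of the sums held few Ngfr UMIs, and the highest, Schwann nuclei of taPVAT 2, rests on 3, so these r values may follow counting noise.

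In the 5 classes chosen for fitting, 26 gene-by-class fold changes of the 8 genes were obtained. Filters on low counts kept 7 genes in adipocytes, 5 in fibroblasts, 5 in vascular endothelial nuclei, 6 in mural nuclei and 3 in Schwann nuclei (Ntrk3, Nrg4 and Erbb3), so the counts are over those kept. In Schwann nuclei 1 of 3 did not overlap (Erbb3), where 31% of 4003 genes did not, and the fit called 0% of all genes (113 at an unadjusted p under 0.05, and 0 called by DESeq2). Ntrk3 had a negative fold change in adipocytes, vascular endothelial, mural and Schwann nuclei and a positive one in fibroblasts. On the log2 scale the Schwann value turned to 0.22 without BAT 2, and the fibroblast value to -0.99 under the marker gate. Since the contrast was used to choose the genes, nothing further is read from these counts.

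**Figure D5:**
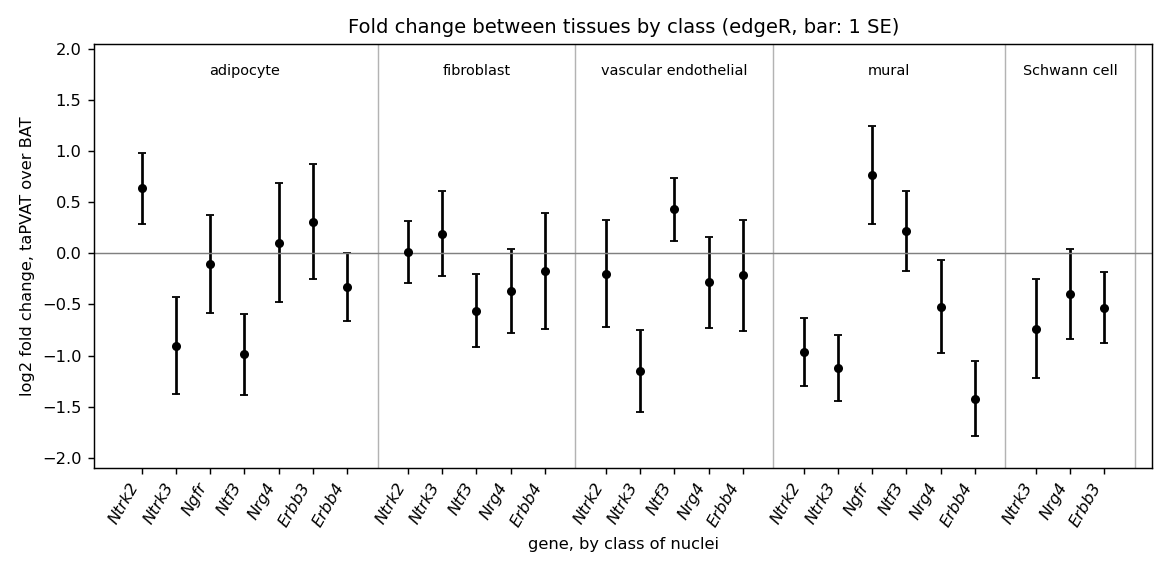
Log2 fold change, taPVAT over BAT, of each of the 8 genes that passed the filter in 5 classes of nuclei (points, edgeR) with 1 standard error on each side (bars). Ntrk3 lies below 0 in 4 of the 5 classes, at -1.15 to -0.74, and at 0.19 in fibroblasts, and Nrg4 in adipocytes lies at 0.10. The vascular endothelial and Schwann values of Ntrk3 are at levels read as background, and the Schwann value was 0.22 without BAT 2. The mural value covers pericytes and smooth muscle, whose shares differed between the tissues.

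The other genes of these pathways were taken from 5 lists of 57 genes, of which 55 were in the files. edgeR tested 48 of them in adipocytes, 31 in fibroblasts, 30 in vascular endothelial, 30 in mural and 25 in Schwann nuclei, and called none in either direction. At an unadjusted p under 0.05 there were 2, 1, 1, 0 and 1 in the same order, beside 340 of 15528, 461 of 9420, 96 of 10193, 349 of 8997 and 113 of 4003 genes in all. DESeq2 called 1 of the 48 list genes in adipocytes, Pcsk6, beside 57 of 15528 genes, and 0 in the other classes. The median log2 fold change of the list genes was -0.00 in adipocytes, 0.04 in fibroblasts, 0.03 in vascular endothelial, 0.02 in mural and 0.17 in Schwann nuclei, beside 0.00, -0.02, 0.00, 0.01 and -0.00 over all genes tested.

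Among the neurotrophin partners, Ntf4, another neurotrophin, had 3 UMIs in the named classes, all in adipocytes. Sorcs1 and Sorcs2, sorting receptors of the sortilin family, were highest in Schwann nuclei at 159 ± 107 and 80.9 ± 28.6 CPM (SD, n = 4). Of the 8, 5, 5, 5 and 4 partners tested in adipocyte, fibroblast, vascular endothelial, mural and Schwann nuclei, 0 were called. Sorcs1 had the smallest p, in Schwann nuclei, at 158.4 and 309 CPM in taPVAT 1 and taPVAT 2 against 72.3 and 95.6 in BAT 1 and BAT 2. Its log2 fold change was 1.30 ± 0.43 (SE), with an unadjusted p of 0.00968 and an adjusted p of 0.999 in edgeR, and without taPVAT 1 it was 1.83 and was called, in a fit whose only taPVAT library, of 38 Schwann nuclei, is assumed to vary like BAT. Sort1 in Schwann nuclei followed at 0.76 ± 0.58 (SE).

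The naming rule takes the 2 genes of a list with the smallest p and 1 direction within both numbers. In the other classes it took, among the partners, Sorcs2 at 0.72 ± 0.35 and Sorcs3 at -0.32 ± 0.45 in adipocytes. In fibroblasts they were Kidins220, a scaffold of neurotrophin receptors, at 0.23 ± 0.31 and Bex3, a p75-associated protein, at 0.21 ± 0.49. In vascular endothelial nuclei they were Sorcs2 at 0.74 ± 0.51 and Maged1, another p75 partner, at 0.32 ± 0.40. In mural nuclei Maged1 stood at 0.43 ± 0.48 and Sort1 at -0.29 ± 0.35 (all log2 fold changes with SE).

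Among the ErbB partners, Egfr, the receptor of epidermal growth factor, was a gene of fibroblasts (681 ± 181 CPM, SD, n = 4) and mesothelial nuclei. Erbb2, which pairs with ErbB3 and ErbB4, was low everywhere. Its means were highest in Schwann nuclei at 12.6 ± 3.03 CPM (SD, n = 4) and in mesothelial nuclei, found in taPVAT alone, at 11.6 ± 12.1 CPM (SD, n = 2). Nrg2 stood at 64.5 ± 12.5 CPM in myeloid nuclei and 22.5 ± 17.5 in adipocytes, Nrg1 was highest in lymphatic endothelial nuclei at 32.5 ± 50.4 CPM, and Tgfa was highest in Schwann nuclei at 101 ± 33.7 CPM. Of 12, 6, 6, 6 and 4 tested in the 5 classes in the order above, 0 were called.

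In adipocytes the ErbB partners with the smallest p were Tgfa at 38.4, 7.32, 9.97 and 4.46 CPM (log2 fold change 1.68 ± 0.80, SE) and Nrg2 at 7.29, 18.0, 16.9 and 47.8 CPM (-1.32 ± 0.69, SE) in taPVAT 1, taPVAT 2, BAT 1 and BAT 2. Nrg2 was thus lower in taPVAT within each number, as Ntrk3 was, although its groups overlapped. The Tgfa groups overlapped as well, with taPVAT 2 below BAT 1. In fibroblasts Egfr was 547 and 580 CPM in taPVAT against 945 and 651 CPM in BAT (-0.56 ± 0.32, SE), and Erbin, an ErbB2-binding scaffold, stood at 0.11 ± 0.29. In mural nuclei Lrig1, which limits ErbB receptors, stood at -1.18 ± 0.75 and Nrg2 at -0.58 ± 0.54, in Schwann nuclei Errfi1, an inhibitor of ErbB kinases, at -0.86 ± 0.72, and in vascular endothelial nuclei Erbin at 0.09 ± 0.27.

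The GDNF family list holds the glial cell line-derived factors and their receptors, another set of signals to neurons. Gfra2 and Gfra3 were highest in Schwann nuclei at 472 ± 88.0 and 142 ± 43.0 CPM (SD, n = 4), while Gdnf had 1 UMI in the named classes, in a Schwann nucleus, and Ret, the shared signalling receptor, reached at most 6.02 ± 6.0 CPM, in lymphocytes. Of 6, 1, 1, 1 and 2 tested in the 5 classes, 0 were called. Gfra4 (-1.12 ± 0.64) and Gfra2 (0.51 ± 0.41) had the smallest p in adipocytes, both under 1 CPM, Gfra2 in mural nuclei (0.66 ± 0.40), Nrtn in vascular endothelial nuclei (0.29 ± 0.63) and Gfra3 in Schwann nuclei (0.42 ± 0.38), as log2 fold changes with SE.

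Among the proteases that process these ligands and receptors, 7, 6, 6, 6 and 5 were tested and 0 called. Pcsk6, a proprotein convertase, had the smallest p of all list genes in adipocytes. It stood at 551 and 512 CPM in taPVAT 1 and taPVAT 2 against 216 and 163 CPM in BAT 1 and BAT 2, higher in taPVAT without overlap. Its log2 fold change was 1.52 ± 0.26 (SE), with an unadjusted p of 0.00157 and an adjusted p of 1.0 in edgeR, while DESeq2 called it. In vascular endothelial nuclei Pcsk6 was 110, 28.9, 31.0 and 23.9 CPM, so the log2 fold change of 1.34 ± 0.55 (SE) there goes with taPVAT 1, and without taPVAT 2 it was 1.92 and was called, in a fit that holds taPVAT 1 alone and assumes that it varies like BAT. In fibroblasts Pcsk5, a related convertase, was 639 and 460 CPM in taPVAT against 320 and 216 in BAT (0.97 ± 0.33, SE, unadjusted p 0.0181, adjusted p 0.658 in edgeR), and Pcsk6 stood at 0.26 ± 0.29.

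The other proteases named here were not called either. Bace1, the secretase that cuts type III neuregulin, stood at -0.62 ± 0.36 in adipocytes, Pcsk5 at 0.41 ± 0.38 in vascular endothelial nuclei, and Furin at 0.44 ± 0.32 in mural nuclei. In Schwann nuclei Adam17, the sheddase of ErbB ligands, stood at 0.93 ± 0.54 and Pcsk7 at 0.81 ± 0.48, with all values being log2 fold changes with SE.

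Of the signalling adaptors that Trk and ErbB receptors share, 15, 13, 12, 12 and 10 were tested and 0 called. Shc3, an adaptor of neural cells, was lower in taPVAT adipocytes at 0.809 and 1.06 CPM against 2.13 and 1.68 CPM (-0.99 ± 0.39, SE, unadjusted p 0.0484 in edgeR), and Gab1 stood at -0.50 ± 0.55. Gab1 in fibroblasts was 260 and 255 CPM in taPVAT against 442 and 280 CPM in BAT (-0.55 ± 0.32, SE), and Shc2 stood at 0.45 ± 0.38. Sos2 stood at 0.24 ± 0.34 in mural, 0.39 ± 0.36 in Schwann and 0.19 ± 0.35 in vascular endothelial nuclei, Plcg1 at 0.20 ± 0.31 in mural, Gab2 at 0.45 ± 0.33 in Schwann and Sh2b1 at -0.38 ± 0.42 in vascular endothelial nuclei.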

How the data were processed

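Single nuclei of frozen taPVAT and BAT (about 50 mg each) were profiled with a droplet 3' RNA kit, with 10000 nuclei aimed for per library, per the labels' protocols. The authors deposited raw UMI counts per gene and barcode, made with Cell Ranger 7.1.0 per the file headers, on Rnor_6.0 per the submitters' processing notes. For the annotation release and the use of intron reads, the setting is not given in the sources used here.

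Barcodes with at least 500 genes were kept, and the 10% with the highest Scrublet doublet scores in each library were removed, because Scrublet's own threshold called between 0% and 15.3%. The doublet rates expected from the numbers of barcodes were 34.4%, 9.87%, 27.6% and 21.4% in taPVAT 1, taPVAT 2, BAT 1 and BAT 2. Doublets may therefore remain. Their part in the adipocyte RNA of other classes, in the levels of small classes and in nuclei with UMIs of 2 genes was not tested. Nuclei were clustered with scanpy 1.11.5 (3000 variable genes, 30 components, 15 neighbours, Leiden resolution 3) into 47 clusters without the 8 genes and the pathway genes. Clusters were named from marker lists, and the naming levels, resolution and doublet share were set on these data. Raw UMIs were summed per library and class. Adipocyte, fibroblast, vascular endothelial, mural and Schwann nuclei, each with at least 20 nuclei in every library, were fitted with edgeR 4.0.16 (R 4.3.3; TMM, filterByExpr, quasi-likelihood test, Benjamini-Hochberg adjustment at 0.05), with the standard error taken as the log2 fold change over the root of F. Myeloid, lymphocyte and lymphatic endothelial nuclei also reached 20 nuclei in every library but were not among the classes chosen for fitting. DESeq2 1.42.0 was an alternative. The fitting code was tested on simulated counts.

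The libraries are the replicates, 2 against 2, and p-values measure only the spread between them, which may be partly technical. Thinned shares left out nuclei under 1000 UMIs, which were 226, 5, 40 and 19 adipocytes and 394, 23, 131 and 150 vascular endothelial nuclei in taPVAT 1, taPVAT 2, BAT 1 and BAT 2. Intervals are exact Poisson at 95% and floors are 3 counts, and both cover counting error only. Likeness to other genes is Pearson's r on log2(CPM + 1).

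The genes, lists and tests were chosen with earlier results of these data known. All 8 genes are named, and of each pathway list the 2 genes per class with the smallest p and the same direction within both replicate numbers. Alternatives were DESeq2, no filter on low counts, a replicate block, each library left out, at least 1000 genes, no doublet removal, at most 5% mitochondrial UMIs and a gate on the marker UMIs of each nucleus. Counting the unnamed haemoglobin-led clusters as adipocytes was added after seeing the data. Nrg3 and Gfra1 were not analysed here, and some genes of the neurotrophin partner list are not reported here.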

Additional observations from a re-analysis of the deposited data

Results flagged for a closer look

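Whole classes were set against each other, and subclasses against those of the same class, where each had at least 20 nuclei in every library and 20 UMIs of the gene. There taPVAT lay above BAT in one class and below it in another, without overlap in either, in 5 comparisons, and none of these differences was tested. Within a single fitted class, 20.2% to 31% of all genes tested had groups without overlap. The share of all genes with opposite directions in 2 classes was not computed, so nothing is read from the count of 5. The log2 ratio of mean CPM, taPVAT over BAT, of Ntrk2 was 0.60 in adipocytes and -0.95 in mural nuclei, a difference of 1.55, on an adipocyte level of 2.51 to 4.49 CPM. Smooth muscle was a larger part of the mural nuclei in BAT, and its part in the mural ratio was not tested. The log2 ratio was also taken for the other 2 genes. For Ntf3 it was 0.51 in vascular endothelial nuclei against -1.02 in adipocytes, a difference of 1.52, against -2.17 in lymphatic endothelial nuclei, a difference of 2.68 that rests on 27 and 25 nuclei in BAT 1 and BAT 2, and against -1.80 in Schwann nuclei, a difference of 2.30 that includes the Schwann library with 0 UMIs. For Ntrk3 it was 0.97 in Pi16-high fibroblasts and -1.13 in Pi16-low fibroblasts, a difference of 2.10, where the Pi16-low level was below the median of the adipocyte markers. Erbb4 and Ntrk2 also had opposite directions in pericytes and smooth muscle, which fell short of this minimum with 16 smooth muscle nuclei in taPVAT 2, where smooth muscle held 2 Erbb4 UMIs and 1 Ntrk2 UMI. taPVAT over BAT for Erbb4 was 0.219 and 0.184 in pericytes in numbers 1 and 2, with smooth muscle at 46.1 and 58.7 CPM in taPVAT against 34.3 and 29.6 CPM in BAT, and this was not tested either.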

How the results depend on the processing

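The number of genes called moved with the processing. edgeR called 0 in adipocytes, 22 in fibroblasts, 0 in vascular endothelial, 1 in mural and 0 in Schwann nuclei. DESeq2 called 57, 53, 2, 11 and 0 in that order, and without a filter on low counts edgeR called 28, 201, 11, 103 and 7. The gate on each nucleus gave 0 in fibroblasts and 0 in mural nuclei, and 1000 genes per nucleus gave 0 in mural nuclei. Leaving out each library gave 0 to 59, 8 to 107, 0 to 37, 0 to 321 and 0 to 7 in the order of classes above, with 321 in mural nuclei without taPVAT 1. These fits hold 1 library in an arm, which is assumed to vary like the other group.

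The replicate block gave 162, 392, 62, 1 and 8 calls in adipocyte, fibroblast, vascular endothelial, mural and Schwann nuclei. Under it the log2 fold change of Ntrk3 was -0.90 ± 0.15 (SE) in adipocytes and -1.04 ± 0.21 in vascular endothelial nuclei, given as a description. The pathway genes called under it were Nrg2 and Pcsk6 in adipocytes, Pcsk5 in fibroblasts and Pcsk6 in vascular endothelial nuclei. With 1 library in an arm, Errfi1 was called in adipocytes without BAT 2 and Sh2b2 in mural nuclei without taPVAT 1. The labels do not say that the numbers pair the samples. The deviations of taPVAT 1 and BAT 1 from their group means correlated at 0.771 in adipocytes, 0.420 in fibroblasts, 0.522 in vascular endothelial, 0.321 in mural and 0.156 in Schwann nuclei.

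The gate on each nucleus moved the Ntrk3 ratio to adipocytes to 1.25 in mural, 0.698 in vascular endothelial and 1.16 in Schwann nuclei, and leaving out each library gave 0.768 to 0.960, 0.131 to 0.18 and 0.137 to 0.175. Of 266 alternative fold changes of the 8 genes, 244 kept their sign. Of 422 for the named pathway genes, 17 reversed, all but the gated ones on leaving out 1 library, and the cause was not tested. On the log2 scale, leaving out each library gave ranges of -1.18 (without taPVAT 1) to 0.22 (BAT 1) for Gab1 in adipocytes, and in mural nuclei -0.035 (BAT 2) to 1.25 (BAT 1) for Maged1, -0.76 (taPVAT 1) to 0.0097 (taPVAT 2) for Sort1 and -0.062 (BAT 2) to 0.62 (BAT 1) for Sos2. Without BAT 1, Sort1 in mural nuclei was 0.00146, and without taPVAT 1, Sos2 there was -0.032. In Schwann nuclei the ranges were -1.85 (taPVAT 2) to 0.47 (BAT 2) for Errfi1, with 0.30 without taPVAT 1, and -0.19 (taPVAT 1) to 0.64 (taPVAT 2) for Sos2, and under the gate Pcsk7 was -0.22 and Sort1 -0.064. In vascular endothelial nuclei the ranges were -0.306 to 0.968 for Nrtn, -0.12 to 0.74 for Maged1 and -0.12 to 0.55 for Sos2, each lowest without taPVAT 1 and highest without BAT 1, and without BAT 2 they were -0.17, -0.0056 and -0.0976. The limit of 5% mitochondrial UMIs left a library with 0 nuclei in 4 classes and was run for adipocytes only. Low counts limit Bdnf and Ngfr.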
